A study of Mus musculus with 8 samples.

Results

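The genes of glycolysis, lactate export, the pentose phosphate pathway and the response to low oxygen were followed in mouse dendritic cells that had taken up ferroptotic cells. The 36 genes were given as a list of symbols. No rule on their measured values picked them, but earlier results of these data were known when they were chosen. They matched 37 of the 55487 rows of the count table, since Aldoa had a second row. All 37 rows passed the low-count filter, which left 15411 genes in the table. Dendritic cells were grown from bone marrow of wild-type female C57BL/6J mice of 6 to 8 weeks with GM-CSF at 20 ng/ml for 10 days (BMDC). One group of 4 libraries was untreated BMDC. The other group of 4 libraries (BMDC-fer) was BMDC of the same genotype that were kept for 4 h with Jurkat cells, a human T-cell leukaemia line, and then sorted so that only those that had engulfed a Jurkat cell were sequenced. The Jurkat cells had been driven into ferroptosis with the GPX4 inhibitor ML162 at 0.5 µM for 14 h. Untreated BMDC were not described as having passed through the sorter, so engulfment, co-culture and sorting cannot be told apart.

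Glycolysis splits glucose into pyruvate, and lactate dehydrogenase together with monocarboxylate carriers turns pyruvate into lactate and moves it out of the cell. The pentose phosphate pathway branches off after hexokinase and yields NADPH, which cells use to regenerate reduced glutathione, and ribose phosphate. When oxygen is short, prolyl hydroxylases no longer mark HIF-1α for degradation, and the factor raises transcription of glucose transporters, most glycolytic enzymes and genes such as Vegfa and Bnip3. Dendritic cells lean on glycolysis when they are activated.

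Libraries held between 39326672 and 50532209 counts. Replicates 1 and 2 lay apart from replicates 3 and 4 in both groups, on a first principal component that carried 41.5% of the variance, and the groups separated on the second, with 39.7%. The labels name no batch for this split. Effects were therefore fitted over all 8 libraries and within replicates 1 and 2 and replicates 3 and 4. For many single genes only part of these effects is given. A gene counts as called where its adjusted p was at most 0.05 (edgeR quasi-likelihood test, Benjamini-Hochberg over all genes tested) and its log2 fold change was at least 0.58 in either direction. Values are counts per 1000000 (CPM) of the TMM-scaled library size. The study calls its samples independently collected, and the labels do not tie them to mice or cultures, so p-values measure the spread between these libraries. All 10 dendritic cell markers were above 1 CPM in at least 1 library, and BMDC held 9606 to 19970 CPM in their sum, BMDC-fer 6825 to 10789 CPM. Of these, 1 (Flt3) was called lower in BMDC-fer, against 5.91% of all genes, and 7 were when replicate numbers entered as a block, a fit that called 13.0% of all genes in either direction. In these bulk samples, fewer cells of a type and less RNA per cell cannot be told apart.

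Hypoxia-responsive genes were high in BMDC replicates 3 and 4 and low in replicates 1 and 2, and this gap was smaller in BMDC-fer. The sum of dendritic cell markers moved with the same split in the opposite direction. It averaged 16999.7 CPM in BMDC replicates 1 and 2 and 9804 CPM in replicates 3 and 4, and 9123 and 6883 CPM in the same BMDC-fer replicates. In BMDC, 6 of the 10 markers were at least 2-fold lower in replicates 3 and 4 than in 1 and 2, against 12.7% of all genes. Ciita, the master regulator of MHC class II genes, was at 326, 242, 34.6 and 33.1 CPM in BMDC and at 76.2, 44.1, 18.2 and 19.97 CPM in BMDC-fer. Zbtb46, a factor that marks classical dendritic cells, was at 42.7, 23.3, 7.21 and 6.29 CPM in BMDC, and the lectin Cd209a at 33.7, 12.1, 1.66 and 1.02 CPM. Itgax went the other way, at 943, 787, 1305 and 1407 CPM. These markers were named after their values were seen, and the part of cell makeup in the split was not tested. Egln3, Vegfa, Bnip3 and Ankrd37 had the widest gaps among the listed genes. Their promoters are shown because these genes moved together, beside those of Pfkp and Hk3, the genes with the lowest adjusted p among listed genes called lower and with the largest log2 fold change among those called higher. Each line gives the 250 bases before a RefSeq transcript start (GRCm38.p6), written 5′ to 3′ on the gene's strand. Capitals mark ACGTG or GCGTG, the core letters of the hypoxia response element, on either strand, where they read CACGT or CACGC.
Egln3, chr12:54203875-54204124, minus strand: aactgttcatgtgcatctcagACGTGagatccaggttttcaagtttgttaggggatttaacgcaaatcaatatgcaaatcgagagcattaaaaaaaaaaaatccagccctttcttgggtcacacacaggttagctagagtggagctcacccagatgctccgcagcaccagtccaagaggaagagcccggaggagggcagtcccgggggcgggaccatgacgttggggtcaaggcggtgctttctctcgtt
Vegfa, chr17:46032378-46032627, minus strand: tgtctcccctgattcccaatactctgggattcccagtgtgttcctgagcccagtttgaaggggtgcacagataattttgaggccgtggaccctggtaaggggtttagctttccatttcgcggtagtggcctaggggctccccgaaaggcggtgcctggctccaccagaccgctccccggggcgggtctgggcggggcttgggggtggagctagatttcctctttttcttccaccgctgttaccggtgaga
Bnip3, chr7:138909507-138909756, minus strand: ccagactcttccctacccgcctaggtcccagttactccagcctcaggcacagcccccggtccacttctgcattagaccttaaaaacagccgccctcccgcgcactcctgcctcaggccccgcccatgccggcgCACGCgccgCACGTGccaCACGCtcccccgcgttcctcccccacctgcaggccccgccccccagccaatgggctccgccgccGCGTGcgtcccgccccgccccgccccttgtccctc
Ankrd37, chr8:45999851-46000100, minus strand: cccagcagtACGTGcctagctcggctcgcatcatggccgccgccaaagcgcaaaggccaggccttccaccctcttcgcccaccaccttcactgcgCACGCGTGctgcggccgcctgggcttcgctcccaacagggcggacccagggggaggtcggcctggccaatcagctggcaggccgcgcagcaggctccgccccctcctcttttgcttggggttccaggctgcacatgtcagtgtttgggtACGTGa
Pfkp, chr13:6648772-6649021, minus strand: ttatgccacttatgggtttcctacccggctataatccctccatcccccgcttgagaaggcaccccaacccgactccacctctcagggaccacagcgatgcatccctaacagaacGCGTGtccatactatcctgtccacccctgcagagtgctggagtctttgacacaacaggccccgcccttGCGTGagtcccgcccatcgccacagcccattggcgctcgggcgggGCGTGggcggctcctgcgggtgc
Hk3, chr13:55021386-55021635, minus strand: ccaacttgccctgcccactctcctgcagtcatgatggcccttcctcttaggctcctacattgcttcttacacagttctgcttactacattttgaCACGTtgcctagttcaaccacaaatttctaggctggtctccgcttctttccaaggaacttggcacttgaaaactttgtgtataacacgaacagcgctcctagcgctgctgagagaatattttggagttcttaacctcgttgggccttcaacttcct
A core was present in 39 of the 49 windows found for the listed genes (79.6%) and in 38.6% of the 32851 windows of all genes. The same letters form part of CACGTG, the E-box of the MYC and MLX families, which was present in 12.2% of the listed genes' windows and 6.02% of all. Cores were counted on each strand, so a single CACGTG or CACGCGTG stretch counts as 2. By this count Bnip3 held 5 cores and Ankrd37 held 4, each with 1 such stretch. The window of Vegfa shown held 0 and a second Vegfa window inside the gene held 2. Pfkp held 3, and Egln3 and Hk3 held 1 each. The 49 windows come from 35 genes, and some windows of the same gene overlap and share cores. The list was drawn up to hold HIF targets, so no conclusion is drawn from its higher share of windows with a core. The base makeup of the windows was not compared. The matches describe letters and not binding. No window was found for Slc2a3.

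Egln3 encodes a HIF prolyl hydroxylase and is itself raised by HIF. It was at 2.86, 3.77, 97.7 and 140.3 CPM in BMDC replicates 1 to 4 and at 4.63, 6.34, 26.7 and 24.0 CPM in BMDC-fer replicates 1 to 4. Egln3 was thus 35.9-fold higher in BMDC replicates 3 and 4 than in 1 and 2, and 4.62-fold higher in the same BMDC-fer replicates. Within replicates 1 and 2 it was higher in BMDC-fer (log2 fold change 0.72 ± 0.23 SE, edgeR adjusted p = 0.0373), and within replicates 3 and 4 it was lower (-2.23 ± 0.20 SE, adjusted p = 3.65e-05). It was the only listed gene called in opposite directions in the 2 pairs, a pattern found in 0.545% of all genes. Over all 8 libraries the groups overlapped and Egln3 was not called (-1.99 ± 1.19 SE, adjusted p = 0.293).

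**Figure D1:**
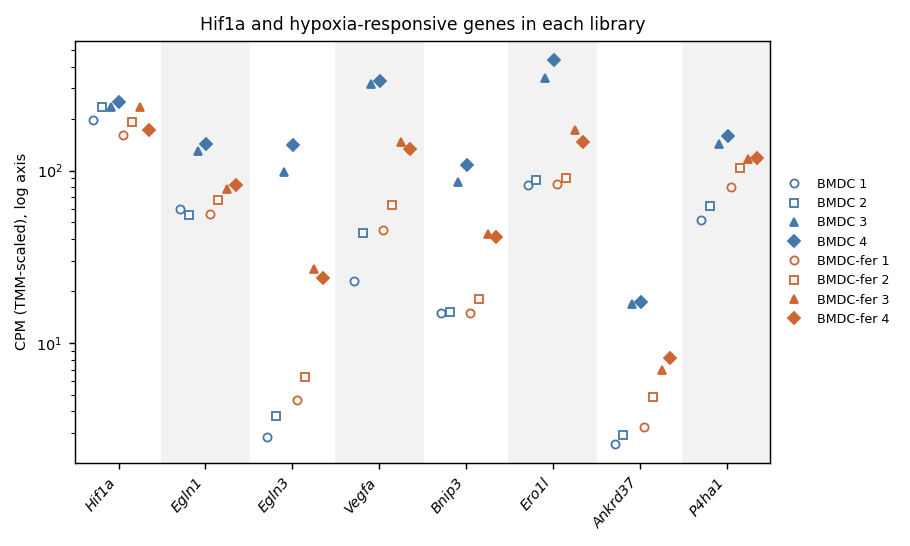
CPM of Hif1a and 7 hypoxia-responsive genes in each library, on a log axis. Blue is BMDC and orange BMDC-fer, open symbols are replicates 1 and 2 and filled symbols replicates 3 and 4. In all but Hif1a the filled blue symbols stand above every other library.

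Vegfa, which encodes the main angiogenic growth factor, was at 22.9, 43.4, 317 and 329.6 CPM in BMDC and at 45.0, 63.3, 147 and 134 CPM in BMDC-fer. Both BMDC-fer replicates 1 and 2 were above their BMDC counterparts, and both BMDC-fer replicates 3 and 4 were below theirs. Its log2 fold change was 0.70 ± 0.26 SE in replicates 1 and 2 (edgeR adjusted p = 0.0555) and -1.20 ± 0.25 SE in replicates 3 and 4 (adjusted p = 0.00367). Bnip3, a mitophagy receptor, was at 14.9, 15.2, 85.7 and 108 CPM in BMDC and at 14.9, 18.0, 43.0 and 41.0 CPM in BMDC-fer. Its low level was shared by replicates 1 and 2 of both groups, and it was lower in BMDC-fer in replicates 3 and 4 (-1.20 ± 0.13 SE, edgeR adjusted p = 8.31e-05). Ankrd37, an ankyrin-repeat protein and established HIF target, was at 2.60, 2.93, 16.9 and 17.4 CPM in BMDC and at 3.26, 4.87, 6.97 and 8.17 CPM in BMDC-fer. Ankrd37 overlaps Lrp2bp, with which it shares 11.4% of its 50-base words, and the use of strand in counting is not given in the sources used here.

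Ero1l (Ero1a), the oxidase that forms disulfide bonds in the endoplasmic reticulum, was at 82.7, 88.0, 344 and 439 CPM in BMDC and at 84.0, 90.6, 173 and 147 CPM in BMDC-fer. Its difference in replicates 3 and 4 (-1.29 ± 0.13 SE, edgeR adjusted p = 5.81e-05) was of the size seen for Vegfa and Bnip3, and in replicates 1 and 2 it was 0.03 ± 0.12 SE (adjusted p = 0.86). Egln1, the main prolyl hydroxylase acting on HIF-1α, was at 60.2, 55.0, 129.8 and 142 CPM in BMDC and at 56.1, 67.9, 78.0 and 82.8 CPM in BMDC-fer, and was called lower in replicates 3 and 4 (-0.76 ± 0.10 SE, edgeR adjusted p = 0.000362). P4ha1, a collagen prolyl hydroxylase, was at 51.8, 62.5, 143 and 159.8 CPM in BMDC and at 80.3, 104, 116 and 119 CPM in BMDC-fer, and was called higher in replicates 1 and 2 (0.69 ± 0.13 SE, edgeR adjusted p = 0.00359). Hif1a itself, the oxygen-regulated subunit, showed no such split. It was at 195, 235, 233 and 250.4 CPM in BMDC and at 161, 192, 234 and 173 CPM in BMDC-fer, with overlapping groups and no call (-0.26 ± 0.14 SE, edgeR adjusted p = 0.240). HIF-1α is controlled mainly at the protein level, which was not measured.

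Over all libraries 0 of the 8 genes of the HIF group were called by edgeR, with 0 at an unadjusted p under 0.05, and DESeq2 called 0. In replicates 3 and 4, 6 of the 8 were called lower, against 16.2% of all genes, and in replicates 1 and 2, 2 were called higher (Egln3 and P4ha1), against 9.36% of all genes. The test of a difference between the pairs passed for 7 of the 8, all but Hif1a (edgeR adjusted p = 0.917). Among all 37 rows the difference between pairs passed for 25 (67.6%), and over all genes for 37.8%. BMDC replicates 3 and 4 were at least 2-fold above replicates 1 and 2 in 17 of 37 rows (45.9%), against 9.60% of all genes. The median gap over the 37 rows was 0.84 on the log2 scale in BMDC and 0.33 in BMDC-fer, and over all genes it was -0.0053 and 0.02. Taken without sign, the median gap over all genes was 0.48 in BMDC and 0.29 in BMDC-fer, and over the 37 rows 0.84 and 0.33. A smaller gap in BMDC-fer was thus also present over all genes. The share of all counts that fell in the 37 rows was 0.99% and 1.00% in BMDC replicates 1 and 2, 1.52% and 1.57% in BMDC replicates 3 and 4, 1.09% and 1.13% in BMDC-fer replicates 1 and 2, and 1.38% and 1.36% in BMDC-fer replicates 3 and 4. The 4 BMDC-fer libraries thus lay between the low and the high BMDC pair. These shares leave out 3557323 counts on pseudogenes and other copies of Gapdh, whose own row held 63260.

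**Figure D2:**
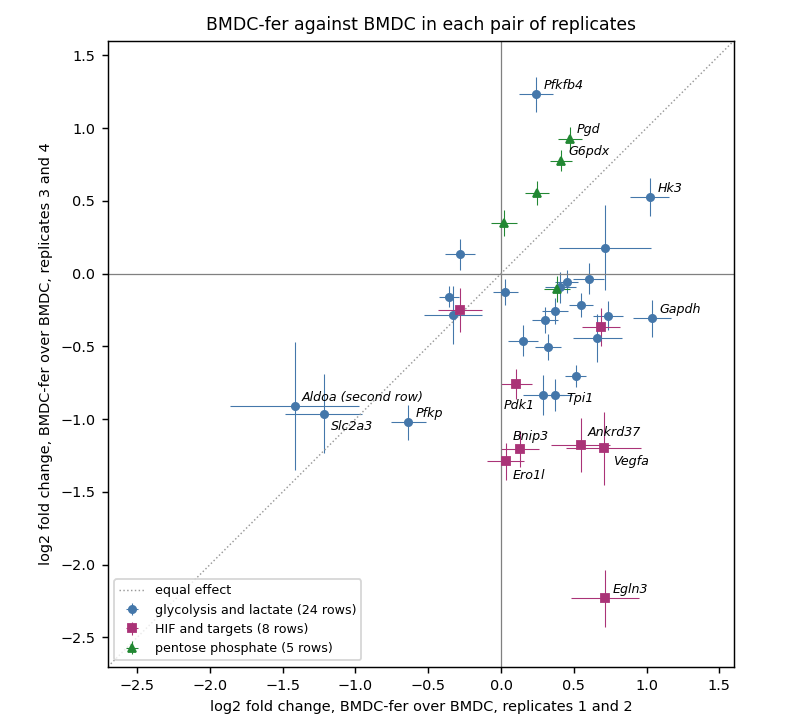
Log2 fold change of BMDC-fer over BMDC in replicates 1 and 2 (x axis) and in replicates 3 and 4 (y axis) for the 37 rows, with bars of 1 SE and a dotted line of equal effect. Most genes lie to the right of 0 and below 0, and the pentose phosphate genes lie mostly above 0 on both axes.

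Within replicates 1 and 2, 30 of the 37 rows had a log2 fold change above 0, with a median of 0.37. Within replicates 3 and 4, 8 of the 37 were above 0, with a median of -0.29. In replicates 1 and 2, 7 rows were called higher (18.9%) and 3 lower (8.11%), against 9.36% and 12.9% of all genes. In replicates 3 and 4, 3 rows were called higher (8.11%) and 11 lower (29.7%), against 16.8% and 16.2% of all genes. Over all 8 libraries these directions offset each other, and the median over the 37 rows was -0.07 against 0.00069 for all genes. Here 2 rows were called higher (5.41%) and 3 lower (8.11%), 5 in all, against 3.47%, 5.91% and 9.38% of all genes. The libraries of the groups did not overlap in 7 of the 37 rows (18.9%) and in 22.9% of all genes.

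Of the listed genes, Slc2a1 (GLUT1) and Slc2a3 (GLUT3) encode carriers through which glucose enters. Slc2a1 was at 104, 100.2, 301 and 321 CPM in BMDC and at 150.1, 141, 189 and 193 CPM in BMDC-fer. All 4 BMDC-fer libraries lay between the 2 BMDC pairs, and the difference between the pairs had the lowest adjusted p of the listed genes (-1.22, edgeR adjusted p = 0.000114). Slc2a3 was at 7.21, 4.70, 4.66 and 3.27 CPM in BMDC and at 2.63, 2.47, 2.23 and 1.83 CPM in BMDC-fer. Every BMDC-fer library was below every BMDC library, and Slc2a3 was called lower (-1.11 ± 0.27 SE, edgeR adjusted p = 0.0322), with -1.22 and -0.96 in the 2 pairs (difference between pairs, adjusted p = 0.627). The call was lost when any single library other than BMDC replicate 4 was left out, with adjusted p between 0.0517 and 0.0975. Per kilobase of transcript, Slc2a1 made up 98.2% ± 1.39 (SD, n = 4) of the summed level of the 2 carriers in BMDC and 99.3% ± 0.209 (SD, n = 4) in BMDC-fer. Slc2a6, an unlisted gene of glucose entry, is not part of this share and was named after its values were seen. It was at 201, 196, 105 and 100.2 CPM in BMDC and at 230, 249.8, 87.9 and 82.4 CPM in BMDC-fer, and was not called over all libraries.

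The summed level of neutrophil markers was lower in BMDC-fer, as Slc2a3 was. Of 10 neutrophil markers 6 were called lower in BMDC-fer, against 5.91% of all genes. BMDC libraries held 46.5 to 265 CPM in their sum and BMDC-fer libraries 14.6 to 44.2 CPM. All 10 had a level above 1 CPM in at least 1 library. The part of these cells in the level of Slc2a3 or any other listed gene was not tested.

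Hexokinases phosphorylate glucose on entry. Hk3 (ENSMUSG00000025877, chr13:55005985-55021385), the isoform found mainly in myeloid cells, was at 129, 150.0, 222 and 196 CPM in BMDC and at 298, 268, 263 and 338 CPM in BMDC-fer. All 4 BMDC-fer libraries were above all 4 BMDC libraries, and Hk3 was called higher (0.75 ± 0.18 SE, edgeR adjusted p = 0.0336). It was 1.02 ± 0.13 SE in replicates 1 and 2 and 0.53 ± 0.13 SE in replicates 3 and 4. Leaving out BMDC replicate 2 or 4 or any BMDC-fer library ended the call, with adjusted p between 0.0552 and 0.0914. Hk1 and Hk2 were not called (edgeR adjusted p = 0.240 and 0.519). Hk1, the widely expressed isoform, was at 70.5 to 84.6 CPM in BMDC and at 55.6 to 76.2 CPM in BMDC-fer. Hk2, the isoform that HIF and growth signals raise, was at 98.2, 119, 184 and 163 CPM in BMDC but stayed between 118 and 128 CPM in BMDC-fer. Per kilobase of transcript, Hk3 made up 55.0% ± 1.22 (SD, n = 4) of the 3 hexokinases in BMDC and 70.5% ± 2.57 (SD, n = 4) in BMDC-fer, while Hk2 was at 25.9% and 17.5% and Hk1 at 19.2% and 12.02%. For none of the 3 did the shares of the groups overlap, and the order of the mean shares was Hk3, Hk2, Hk1 in both groups.

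Phosphofructokinase 1 commits sugar to glycolysis and has a liver (Pfkl), a muscle (Pfkm) and a platelet (Pfkp) isoform. Pfkp (ENSMUSG00000021196, chr13:6579768-6648777) was at 424, 339, 429 and 408 CPM in BMDC and at 266, 225, 205 and 207 CPM in BMDC-fer. It was lower in every BMDC-fer library than in any BMDC library (-0.83 ± 0.13 SE, edgeR adjusted p = 0.00767) and was called lower in both pairs (-0.64 and -1.02). This was the only call among the listed genes that no left-out library ended (adjusted p up to 0.0341). Pfkp shares 17.1% of its 50-base words with Pitrm1, which overlaps it. Pfkl was at 85.3, 106, 222 and 221 CPM in BMDC and at 121, 181, 161 and 165 CPM in BMDC-fer, and was called higher in replicates 1 and 2 alone (0.66 ± 0.17 SE, edgeR adjusted p = 0.0134). Pfkm was between 3.72 and 7.68 CPM in all libraries. Per kilobase of the longest transcript, Pfkp made up 52.5% ± 11.0 (SD, n = 4) of the 3 isoforms in BMDC and 37.5% ± 6.72 (SD, n = 4) in BMDC-fer, and Pfkl 45.0% and 60.0%, with no test made. With the longest protein-coding transcript in its place, Pfkp was at 69.4% and 55.4%, so which isoform leads in BMDC-fer depends on the length used.

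**Figure D3:**
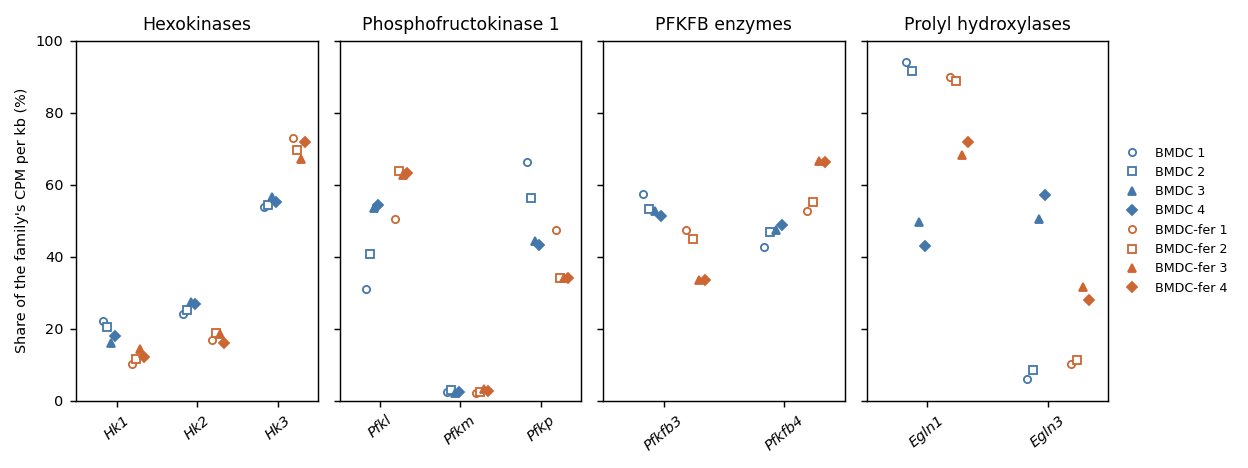
Share of each gene in the summed CPM per kilobase of its listed family, in percent, for each library. Hk3 is higher and Hk1 and Hk2 lower in every BMDC-fer library, Pfkfb4 is higher in every BMDC-fer library, and Egln3 reaches its highest shares in BMDC replicates 3 and 4.

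The bifunctional enzymes Pfkfb3 and Pfkfb4 set the level of fructose 2,6-bisphosphate, which activates phosphofructokinase 1. Pfkfb4 was at 18.4, 22.5, 21.3 and 23.2 CPM in BMDC and at 25.1, 23.2, 55.2 and 49.3 CPM in BMDC-fer. It was called higher in replicates 3 and 4 (1.23 ± 0.12 SE, edgeR adjusted p = 5.54e-05), with 0.24 ± 0.12 SE in replicates 1 and 2, and the 2 pairs differed (adjusted p = 0.00213). Over all libraries it was not called (0.84 ± 0.29 SE, edgeR adjusted p = 0.0900). Pfkfb3 was between 25.9 and 38.2 CPM in all 8 libraries and was not called (-0.07 ± 0.13 SE, edgeR adjusted p = 0.766). Per kilobase of transcript, Pfkfb4 made up 46.3% ± 2.65 (SD, n = 4) of the pair in BMDC and 60.2% ± 7.30 (SD, n = 4) in BMDC-fer.

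Genes of the middle and lower steps of glycolysis had the split of the HIF group. Aldoa, the aldolase of most tissues, was at 886, 861, 1789 and 1936 CPM in BMDC and at 1243, 1311, 1595 and 1615 CPM in BMDC-fer. Tpi1, triose phosphate isomerase, was at 219.9, 264, 659.7 and 689 CPM in BMDC and at 287, 339.9, 374 and 384 CPM in BMDC-fer. Pgk1, the first ATP-forming step, was at 494, 468, 1083 and 1190.2 CPM in BMDC and at 594, 611, 844 and 761 CPM in BMDC-fer. In each of these genes BMDC replicates 1 and 2 were lowest and BMDC replicates 3 and 4 highest, with the BMDC-fer libraries between them. Tpi1 was called lower in replicates 3 and 4 (-0.83 ± 0.11 SE, edgeR adjusted p = 0.000323). Gpi1, Pgam1 and Eno1, which carry out isomerase, mutase and enolase steps, had the same order, with log2 fold changes of 0.30, 0.74 and 0.37 in replicates 1 and 2 and -0.32, -0.29 and -0.26 in replicates 3 and 4. The difference between pairs passed the test for all 6 (edgeR adjusted p between 0.000680 and 0.00515). Pkm, pyruvate kinase, was at 1143, 1064, 1889 and 1889.6 CPM in BMDC and at 1508, 1508, 1836 and 1798 CPM in BMDC-fer, and Eno2, the neuronal enolase, was below 5 CPM throughout.

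**Figure D4:**
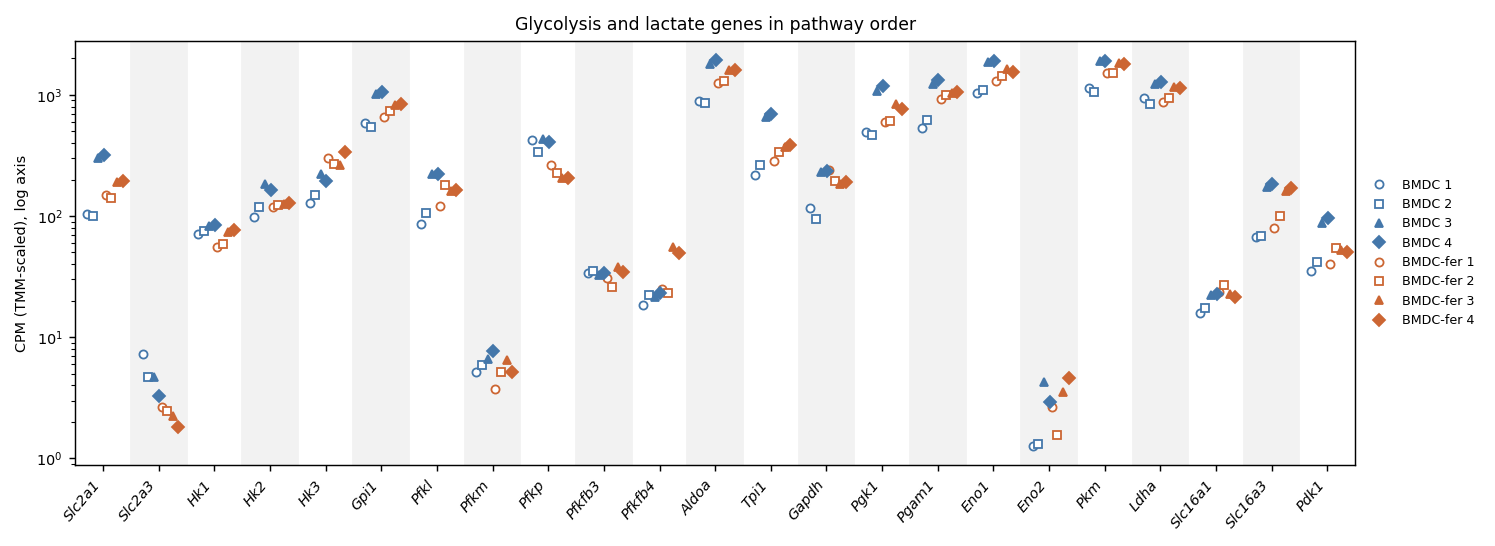
CPM of 23 genes of glycolysis, its regulators and lactate export in pathway order, for each library, on a log axis (the second Aldoa row is left out). Symbols are as in the plot of hypoxia-responsive genes. In Slc2a1, Gpi1, Pfkl, Aldoa, Tpi1, Pgk1, Pgam1, Eno1, Pkm and Slc16a3 the open blue symbols are lowest and the filled blue symbols highest. The orange symbols lie between them in these genes. The other genes shown do not have this full order, and Hk3 and Pfkp part the groups in opposite directions.

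Gapdh, glyceraldehyde-3-phosphate dehydrogenase, needs care as a row of this table. It was at 117, 94.2, 229 and 233 CPM in BMDC and at 241, 193, 183 and 190.4 CPM in BMDC-fer. Its transcript shares 82.5% of its 50-base words with other genes, and 72 pseudogenes and other copies held 3557323 counts while the Gapdh row held 63260, or 1.75% of the sum. With the copies added, an alternative chosen after seeing the data, the level was 6873, 7376, 14116 and 15523 CPM in BMDC and 8792, 9517, 11451 and 11827 CPM in BMDC-fer. The log2 fold change in replicates 1 and 2 was 1.04 ± 0.13 SE for the row alone (edgeR adjusted p = 0.000441, called higher) and 0.36 with the copies (adjusted p = 0.0228, under the fold threshold), and in replicates 3 and 4 it was -0.31 and -0.34. Over all libraries its direction turned, from 0.26 ± 0.29 SE to -0.07, with no call in either. Eno1, Pgk1, Bnip3, Pgam1, Pkm and Gpi1 also share over 25% of their words with other genes, and their own rows held 83.5%, 90.2%, 97.6%, 88.8%, 98.4% and 99.3% of the counts of the row and its copies. The second Aldoa row, a separate identifier just upstream on chromosome 7, was between 0.121 and 0.507 CPM (6 to 22 counts). It was called lower (-1.15 ± 0.31 SE, edgeR adjusted p = 0.0446), but not with the replicate number as a block (adjusted p = 0.0743) nor when any single library was left out (adjusted p between 0.0647 and 0.125).

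Lactate dehydrogenase A, which turns pyruvate into lactate, was called in neither pair of replicates. Ldha was at 944, 841, 1232 and 1275 CPM in BMDC and at 878, 946, 1161 and 1135 CPM in BMDC-fer, with log2 fold changes of 0.03 and -0.13 in the 2 pairs (edgeR adjusted p = 0.809 and 0.266). The lactate exporter Slc16a3 (MCT4) was at 66.9, 68.3, 173 and 183 CPM in BMDC and at 79.2, 100.3, 162 and 171 CPM in BMDC-fer, so the gap between the replicate pairs was present in both groups. Slc16a1 (MCT1), which carries lactate both ways, was at 15.9, 17.4, 22.3 and 22.7 CPM in BMDC and at 23.5, 27.0, 22.6 and 21.3 CPM in BMDC-fer, and was called higher in replicates 1 and 2 (0.60 ± 0.10 SE, edgeR adjusted p = 0.00220). Per kilobase of transcript Slc16a3 made up 84.8% ± 4.85 (SD, n = 4) of the 2 carriers in BMDC and 83.4% ± 5.97 (SD, n = 4) in BMDC-fer. Pdk1, the kinase that shuts off pyruvate dehydrogenase, was at 35.4, 41.5, 87.4 and 96.1 CPM in BMDC and at 39.8, 54.3, 52.5 and 50.4 CPM in BMDC-fer. It was called lower in replicates 3 and 4 (-0.83 ± 0.14 SE, edgeR adjusted p = 0.00114). Of the 24 rows of glycolysis and lactate handling, 1 was called higher over all libraries and 3 lower, against 3.47% and 5.91% of all genes. In 15 of the 24 the log2 fold change was above 0 in replicates 1 and 2 and below 0 in replicates 3 and 4, as it was in 19.9% of all genes.

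The signs of most glycolytic genes, above 0 in replicates 1 and 2 and below 0 in replicates 3 and 4, were found in 1 of the 5 pentose phosphate genes, Pgls (log2 fold changes of 0.38 and -0.11), and the pathways were not tested against each other. G6pdx (ENSMUSG00000031400, chrX:74409483-74429194), glucose-6-phosphate dehydrogenase and the entry step that makes NADPH, was at 129.5, 138, 122 and 123 CPM in BMDC and at 172, 184, 210.1 and 209 CPM in BMDC-fer. Every BMDC-fer library was above every BMDC library, and G6pdx was called higher (0.60 ± 0.10 SE, edgeR adjusted p = 0.0109). The fold change was just past the threshold, and leaving out replicate 3 or 4 of either group brought it to between 0.56 and 0.58 with adjusted p up to 0.0450. Pgd, which makes the second NADPH, was at 398, 394, 549.9 and 595 CPM in BMDC and at 563, 536, 1129.7 and 1045 CPM in BMDC-fer. Each BMDC-fer library was above the BMDC library of the same number, but the groups overlapped, and Pgd was not called (0.76 ± 0.28 SE, edgeR adjusted p = 0.113). With the replicate number as a block Pgd was called (0.70, adjusted p = 0.0247), a fit in which 13.0% of all genes and 5 of the 37 rows were called.

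Tkt, transketolase, was at 465, 492, 445 and 425 CPM in BMDC and at 542, 594, 637 and 639 CPM in BMDC-fer, with no overlap. It passed the adjusted p (0.0448, edgeR) but not the fold threshold (0.40 ± 0.11 SE). Taldo1, transaldolase, was at 415 to 495 CPM in BMDC and at 459 to 549 CPM in BMDC-fer, and Pgls, the lactonase between G6pdx and Pgd, at 55.6 to 78.9 and 67.9 to 78.5 CPM, and neither was called (edgeR adjusted p = 0.297 and 0.550). G6pdx and Pgd were called higher in replicates 3 and 4 (0.78 ± 0.07 and 0.93 ± 0.08 SE, edgeR adjusted p = 4.94e-05 and 4.07e-05) and were 0.41 and 0.47 in replicates 1 and 2. All 5 pentose phosphate genes had a log2 fold change above 0 in replicates 1 and 2 and 4 of the 5 in replicates 3 and 4. The difference between pairs passed for G6pdx and Pgd, which moved further in replicates 3 and 4, and for Pgls, whose difference had the opposite sign.

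**Figure D5:**
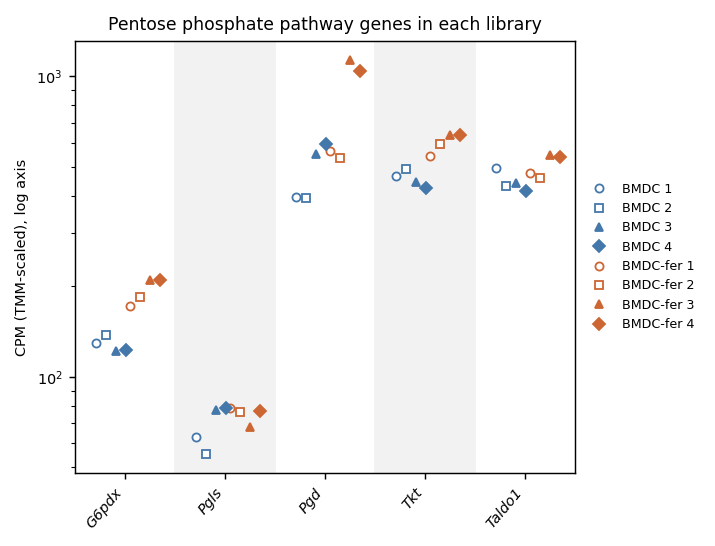
CPM of the 5 pentose phosphate genes in each library, on a log axis, with symbols as in the plot of hypoxia-responsive genes. The orange symbols of G6pdx and Tkt stand above all blue ones, and Pgd is highest in BMDC-fer replicates 3 and 4, at 1129.7 and 1045 CPM.

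Further genes of these pathways were read from 7 lists. Of 96 genes 81 were tested, 4 were called higher (4.94%) and 5 lower (6.17%), against 3.47% and 5.91% of all genes. H6pd, which makes NADPH in the endoplasmic reticulum, was at 12.7, 14.5, 12.1 and 11.8 CPM in BMDC and at 18.5, 18.7, 52.9 and 52.1 CPM in BMDC-fer (1.48 ± 0.37 SE, edgeR adjusted p = 0.0372). Its call was lost with the replicate block (adjusted p = 0.0635), and its rise was larger in replicates 3 and 4 (difference 1.68, adjusted p = 9.47e-05). Tigar, a fructose bisphosphatase that diverts sugar from glycolysis, was at 20.6 to 29.6 CPM in BMDC and at 37.7 to 42.6 CPM in BMDC-fer and was called higher (0.63 ± 0.15 SE, edgeR adjusted p = 0.0295). H6pd and Tigar were the only genes called in their lists, of 7 and 10 tested. In the list of lower glycolysis 2 of 12 genes were called, both lower. Pgam2, the muscle mutase, had a mean of 4.16 ± 0.801 CPM in BMDC against 1.43 ± 0.181 CPM (SD, n = 4) in BMDC-fer, and Eno3, the muscle enolase, 9.85 ± 2.18 and 4.35 ± 1.35 CPM.

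Among 20 further HIF targets tested, 1 was called higher and 2 lower, against 3.47% and 5.91% of all genes. Hmox1, heme oxygenase, which NRF2 and heme also raise, was at 159, 133, 399 and 469.5 CPM in BMDC and at 1048, 835, 1391 and 1417 CPM in BMDC-fer (2.02 ± 0.42 SE, edgeR adjusted p = 0.0215). Ndrg1, a stress-responsive gene, was at 33.3, 33.3, 63.6 and 75.2 CPM in BMDC and at 17.4 to 26.8 CPM in BMDC-fer and was called lower (-1.23 ± 0.29 SE, edgeR adjusted p = 0.0314). Cited2, which restrains HIF by binding its coactivator p300, was also called lower (-0.82 ± 0.13 SE, edgeR adjusted p = 0.00783). Ddit4, an inhibitor of mTORC1, was at 4.68, 4.91, 37.9 and 34.4 CPM in BMDC and at 2.35, 2.18, 5.94 and 5.71 CPM in BMDC-fer. It was lower in BMDC-fer in both pairs, with log2 fold changes of -1.08 in replicates 1 and 2 and -2.63 in replicates 3 and 4 (edgeR adjusted p = 0.000365 and 2.59e-06). Over all libraries it was not called (adjusted p = 0.0795, edgeR), and with the replicate block it was called lower (adjusted p = 0.0214). It was named after its values were seen. The difference between pairs passed for 12 of these 20 genes, against 37.8% of all genes.

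Of 9 regulators of glycolytic transcription, Mlx, the partner of the glucose sensors of the MONDO family, was called higher (0.61 ± 0.15 SE, edgeR adjusted p = 0.0330) and Irf4 lower (-1.42 ± 0.29 SE, adjusted p = 0.0193). Irf4, a factor of dendritic cell identity, was at 106 to 196 CPM in BMDC and at 41.9 to 77.0 CPM in BMDC-fer. Myc and Nfe2l2, named after their values were seen, were not called over all libraries (edgeR adjusted p = 0.153 and 0.0802) but were called higher with the replicate block (adjusted p = 0.0216 and 0.0277) and within replicates 3 and 4 (1.28 and 0.93, adjusted p = 1.39e-05 and 2.15e-05). Of 10 oxygen-sensing genes and of 13 genes of pyruvate entry into mitochondria edgeR called 0 over all libraries. At an unadjusted p under 0.05 there were 2 and 4, and DESeq2 called 0. The difference between pairs passed for 4 of the 10 and for 7 of the 13, against 37.8% of all genes. Leaving out 1 library ended 7 of the 9 calls made over all libraries among the further genes. For Hmox1 and Irf4 this was BMDC-fer replicate 3 or 4 (adjusted p up to 0.0610 and 0.0663). For Tigar, Ndrg1 and Mlx it was BMDC replicate 3 or 4 or any BMDC-fer library (up to 0.0785, 0.0826 and 0.0975). For Eno3 it was BMDC replicate 3 or 4 or BMDC-fer replicate 2, 3 or 4 (up to 0.0669), and for H6pd any BMDC library or BMDC-fer replicate 3 or 4 (up to 0.101). The calls of Pgam2 and Cited2 stood in each case.

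Jurkat cells are human, and mouse genes near-identical to human ones could take up their reads. The mouse counterparts of 15 genes that Jurkat cells express summed to 45.8 to 62.1 CPM in untreated libraries and 36.6 to 58.1 CPM in BMDC-fer, and 9 of the 15 were under 1 CPM in every library. The part of Jurkat RNA in the glycolytic rows was not tested. Macrophage markers summed to 2683 to 3774 CPM in untreated libraries and 3313 to 5097 CPM in BMDC-fer. Of these 10 markers 1 (Adgre1) was called lower, against 5.91% of all genes, and 9 were not called. The log2 fold changes of these 9 over all libraries ran from 0.40 to 0.76, and the median of all 10 was 0.52. The 7 erythroid markers were under 1 CPM in all libraries.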

How the data were processed

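Mouse mRNA was sequenced from 4 libraries of untreated BMDC and 4 of BMDC-fer. The authors used HISAT2 for mapping and featureCounts for counting, and the table they deposited holds raw mouse gene counts, taken here without change. The labels give mm10, and the submitters' processing notes also name CASAVA and DESeq2. The gene annotation, strandedness and the counting of reads with several places are not given in the sources used here. Human counts were not analysed here.

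GENCODE M21 (GRCm38) gave a symbol for 55227 of 55487 identifiers. Counts were analysed with edgeR 4.0.16 (R 4.3.3, limma 3.58.1): filterByExpr with a count minimum of 10, TMM scaling, the quasi-likelihood test and Benjamini-Hochberg adjustment over 15411 genes, with the thresholds of the study (adjusted p of 0.05 and absolute log2 fold change of 0.58). Effects within replicate pairs and their difference came from a fit of 4 groups of 2 libraries. No listed gene failed the filter, so no single-value permutation test was needed. Totals were 39326672 to 50532209 counts, so a count of 10 was 0.236 CPM at the median depth. No 2 libraries of a group differed by less than sampling noise.

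Same-numbered libraries deviated together from their group means (correlations 0.470, 0.381, 0.333 and 0.384), so the numbers were taken to pair the samples, although crossed pairs within replicates 3 and 4 were as high (0.382 and 0.399). Shares within families used CPM per kilobase of the longest transcript. Copies were genes elsewhere that hold at least 10% of a transcript's 50-base words. Promoters are RefSeq windows of GRCm38.p6.

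All listed genes are named. Of each further pathway list, the 2 highest and 2 lowest called genes with a mean of at least 1 CPM are named. The listed genes, the further lists, the markers and the split by replicate pair were chosen with earlier results of these data known. Alternatives were DESeq2 1.42.0, other scalings and filters, a replicate block, a pair covariate, a test against the fold threshold and each library left out. Adding copies and using the longest protein-coding transcript were chosen after seeing the data. The tests were checked on simulated data that lacked the split of both groups by replicate pair, so the check does not cover that split. Figures were drawn with matplotlib 3.10.9 in Python 3.11.15.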

Additional observations from a re-analysis of the deposited data

Results flagged for a closer look

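For 25 of the 37 rows the log2 fold change of BMDC-fer over BMDC differed between replicates 3 and 4 and replicates 1 and 2, by the test of the difference itself (edgeR adjusted p between 0.000114 and 0.0279). The values that follow are the log2 fold change in replicates 3 and 4 minus that in replicates 1 and 2. Among hypoxia-responsive genes it was negative for Egln3 (-2.95), Vegfa (-1.91), Ankrd37 (-1.73), Bnip3 (-1.34), Ero1l (-1.32), P4ha1 (-1.05) and Egln1 (-0.87). Among genes of glycolysis, its regulators, lactate export and the lactonase of the pentose phosphate pathway it was negative for Gapdh (-1.35), Slc2a1 (-1.22), Tpi1 (-1.21), Pdk1 (-1.12), Pfkl (-1.10), Pgam1 (-1.03), Pgk1 (-0.83), Aldoa (-0.76), Slc16a1 (-0.64), Eno1 (-0.63), Gpi1 (-0.62), Hk2 (-0.61), Pkm (-0.51), Slc16a3 (-0.50) and Pgls (-0.49). It was positive for G6pdx (0.36), Pgd (0.45) and Pfkfb4 (0.99). The value of Gapdh is that of its own row, and with its copies added it was -0.71 (adjusted p = 0.00599). These tests rest on 2 libraries in each of 4 groups, and 37.8% of all genes passed the same test.

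Of 74 groups of 4 libraries checked for a library far from the others, 1 stood out, Gapdh in BMDC-fer, where replicate 1 (241 CPM) was separated from the nearest library by 0.831 of the range. Chance gives about 3.7 in 74 where the 4 libraries of a group vary alike. A split by replicate pair puts the widest gap between the pairs and not beside a single library. The check can then hardly find a library that stands apart, so no conclusion is drawn from the count of 1.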

How the results depend on the processing

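Of the 37 rows, 2 were called higher and 3 lower. The counts were 1 and 3 with library size only, 4 and 3 with the replicate pair as a covariate, 0 and 0 when tested against the fold threshold, and 3 and 2 with the replicate block. With 1 library left out, 0 to 2 were called higher and 1 to 2 lower. The 81 further pathway genes gave 4 higher and 5 lower calls. These were 1 and 6 with library size only, 7 and 6 with the pair covariate, 0 and 1 against the fold threshold, 5 and 6 with the replicate block, and 0 to 4 higher and 2 to 7 lower with 1 library left out. Among the 37 rows, the replicate block changed the calls of Pgd and the second Aldoa row and no other. DESeq2 also called Pfkfb4. The number of rows whose difference between pairs passed was 25, and 20 to 26 with 1 library left out, while the share of all genes that passed ran from 25.3% to 36.4%. These fits leave a group with 1 library, which is assumed to vary like the other groups. The median over the 37 rows was -0.07, -0.05 with the replicate block, and -0.21 to 0.05 with 1 library left out. Over 665 comparisons of single rows, 589 kept their direction and their side of the thresholds, and no called row changed direction. Signs turned for 12 uncalled rows. For Pfkl they turned with upper-quartile scaling (0.00432), no low-count filter (0.0139), the replicate block (0.0981) and the pair covariate (0.11), for Eno1 with relative log expression (-0.00292), library size only (-0.0624), at least 1 CPM in 4 libraries (-0.0107) and copies added (-0.0102), for P4ha1 with library size only (-0.0408) and 1 CPM in 4 libraries (-0.00746), and for Gapdh with copies added (-0.0725). With 1 library left out, the log2 fold changes of rows that turned ran from -0.52 to 0.00153 for Slc2a1, -0.20 to 0.0973 for Gpi1, -0.21 to 0.20 for Pfkl, -0.15 to 0.0296 for Pfkfb3, -0.0839 to 0.29 for Aldoa, -0.38 to 0.0461 for Pgk1, -0.0706 to 0.34 for Pgam1, -0.13 to 0.16 for Eno1, -0.15 to 0.0361 for Ldha, -0.13 to 0.32 for Slc16a3 and -0.21 to 0.29 for P4ha1. With the union of exons as length, Hk3 made up 58.9% and 73.5% of the hexokinases in BMDC and BMDC-fer, Pfkfb4 49.3% of its pair in BMDC and Eno1 99.8% in both groups. With the longest protein-coding transcript, Pfkp made up 69.4% and 55.4% and Slc2a1 98.9% in BMDC-fer. The causes of these changes were not tested.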
